A study of Mus musculus with 4 samples.

Results

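The Id genes and the Smads, the transcriptional targets and the transducers by which BMP and TGF-beta signals are usually read, were followed in embryonic mouse larynges that lacked Sonic hedgehog. The members were chosen by gene name and not by their values, though with earlier results of these data known: Id1, Id2, Id3, Id4, Smad1, Smad3, Smad5, Smad6, Smad7 and Smad9. They are 10 of the 46983 genes listed in each library, and all 10 were among the 16972 genes averaging 1 TPM or more (TPM is a level scaled to transcript length and to the total of its library) that entered the test. Larynx tissue was taken at E10.5 (32 to 35 somites), and each library held poly(A) RNA from 3 pooled larynges. The 2 mutant pools (Shh-/- 1 and 2) carried the Shhtm1amc null allele on a Swiss Webster background, and the 2 controls (WT 4 and WT 6) were Swiss Webster wild type. The sample labels write the mutant genotype as Shh+/-, which is also the name of the line, whereas the series design gives Shh-/- embryos. The null allele acts in the whole embryo, so no cell of the mutant larynx was spared the loss of Shh.

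In BMP signaling, a ligand brings together type I and type II receptor kinases, and the type I receptor phosphorylates SMAD1, SMAD5 or SMAD9. TGF-beta and activin receptors phosphorylate SMAD2 and SMAD3 in the same way, and both classes enter the nucleus with the shared partner SMAD4. SMAD6 and SMAD7 are inhibitors induced by the pathways they restrain. The Id genes are direct BMP targets in many cell types. Their products have a helix-loop-helix but no DNA-binding region, and they hold E proteins away from tissue-specific bHLH factors. In the foregut, BMP signals from the ventral mesoderm take part in setting the respiratory domain, and Shh from the epithelium signals to the surrounding mesenchyme.

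Hedgehog readouts separated the genotypes as labelled. Ptch1, a receptor and direct target of the pathway, stood at 12.9 and 13.8 TPM in mutant pools against 57.8 and 55.1 TPM in controls (log2 fold change -1.997, limma adjusted p = 0.0319). That call was lost with any 1 pool left out, where few or no genes of any kind were called. The log2 fold change of Ptch1 stayed between -2.13 and -1.95 in the 14 other settings. Shh itself measured 10.4 and 10.8 TPM in Shh-/- against 23.7 and 42.1 TPM in WT (a log2 difference of -1.49, adjusted p = 0.0895), so transcript from the locus was still counted in the mutants. Gli1, a target and mediator of the pathway, was at 3.20 and 8.45 TPM against 41.7 and 32.9 TPM (-2.59, adjusted p = 0.0715). Estimated aligned sequence came to 1.37 gigabases in Shh-/- pool 1 and to between 2.85 and 3.13 gigabases in the other libraries, and haemoglobin genes took 1.18% of all TPM in Shh-/- pool 1 against 1.63% to 1.85% elsewhere. Among the 16972 genes tested, 123 passed an adjusted p of 0.05, or 0.725%, with 95 above and 28 below WT. The median tested gene was 0.08 higher in Shh-/- on the log2 scale, and 58.3% of tested genes were higher, so the members are set against that drift below.

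Start-site sequence is shown for 3 members because it carries the letters that SMAD complexes are known to bind in BMP and TGF-beta targets, and because these members gave 3 different readings: Id2 did not separate the genotypes, Id3 was higher in Shh-/- and Smad9 was lower. The sequences are the 250 bases before the RefSeq start site in GRCm38.p6, read 5' to 3' on the gene's own strand. For Id3 the whole stretch, with both marked sites, lies inside the gene span given below, which begins upstream of it. Capitals mark the GC-rich motif GGCGCC, or CAGAC and its reverse complement GTCTG, both strands having been searched.
Id2, chr12:25096093-25096342, minus strand: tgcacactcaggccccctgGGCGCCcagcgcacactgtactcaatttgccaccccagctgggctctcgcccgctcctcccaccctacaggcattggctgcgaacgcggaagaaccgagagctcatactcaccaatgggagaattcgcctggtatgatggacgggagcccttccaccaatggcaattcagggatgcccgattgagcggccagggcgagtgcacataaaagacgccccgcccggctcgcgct
Id3, chr4:136143572-136143821, plus strand: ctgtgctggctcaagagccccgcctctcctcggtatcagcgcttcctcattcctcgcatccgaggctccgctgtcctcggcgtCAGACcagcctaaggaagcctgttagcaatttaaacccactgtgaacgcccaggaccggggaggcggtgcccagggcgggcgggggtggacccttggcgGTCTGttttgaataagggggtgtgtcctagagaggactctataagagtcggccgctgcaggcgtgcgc
Smad9, chr3:54755332-54755581, plus strand: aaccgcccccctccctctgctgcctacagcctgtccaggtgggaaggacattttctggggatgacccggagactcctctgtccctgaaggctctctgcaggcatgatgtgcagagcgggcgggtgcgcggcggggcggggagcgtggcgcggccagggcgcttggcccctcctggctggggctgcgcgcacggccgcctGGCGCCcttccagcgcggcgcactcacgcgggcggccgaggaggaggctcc
RefSeq windows were found for 8 of the 10 members. Id1 and Smad7 had no window, so neither was searched. GGCGCC stood in a window of 4 members (Id2, Id4, Smad5 and Smad9), and in 11.9% of all 32851 windows of 300 bases. The shorter CAGAC or GTCTG stood in a window of 2 members (Id3, at -167 and -68 from the start site, and Smad5), and in 49.6% of all windows. The GLI-type motif GACCACCCA or TGGGTGGTC was in no member's window and in 0.253% of all windows. A member counts once for any of its windows, so its count and the share of all windows are unlike measures. Smad5 has 3 windows, and the GGCGCC in its windows 1 and 2 is the same site. GC content of the members' windows ran from 60.0% (Id3) to 73.7% (Smad9), and the share of all windows was not matched for it. These matches describe letters in a short window, and neither enrichment nor binding was tested.

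Among the Id genes, Id1 and Id3 were about 1.4 times as abundant in the Shh-/- pools, Id2 was level between genotypes, and Id4 differed little. None of these differences passed the test across all genes. Id1 (chr2:152736251-152737410, plus strand), which restrains differentiation in many progenitors and is widely used as a BMP readout, measured 294 and 233 TPM in mutant pools and 188 and 189 TPM in controls. Both mutant pools stood above both controls, and the gap between the mutant pools was far wider than that between the controls. The log2 fold change on TPM + 1 was 0.47 (SE 0.14, 95% interval 0.12 to 0.82, unadjusted p = 0.0187, limma adjusted p = 0.144), a ratio of 1.39. In these bulk libraries, a change in the number of cells of a type and a change in RNA per cell cannot be told apart. This holds for every value here.

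Id3 (chr4:136143497-136145755, plus strand), which often accompanies Id1 in vessels and in neural crest, measured 269 and 249 TPM in Shh-/- and 197 and 172 TPM in WT. The genotypes did not overlap, and the mutant pools lay closer together than they did for Id1. Its log2 fold change was 0.49 (SE 0.11, 95% interval 0.21 to 0.78, unadjusted p = 0.00697, adjusted p = 0.108), which was the lowest adjusted p of any member. Larger positive differences than those of Id1 and Id3 were found in 17.5% and 16.2% of tested genes.

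Id2 (chr12:25093801-25096092, minus strand), which also acts in lymphoid and neural progenitors, was the most abundant member in every library. It measured 416 and 350 TPM in Shh-/- and 379 and 408 TPM in WT. The control pools lay between the mutant pools. The log2 fold change was -0.04 (SE 0.12, 95% interval -0.35 to 0.26, adjusted p = 0.836), an interval that ends below the estimates for Id1 and Id3, although the differences between these genes were not tested. Id4 (chr13:48261427-48264036, plus strand), an inhibitor best known from neural progenitors, was an order of magnitude less abundant, at 20.6 and 19.2 TPM in Shh-/- and 18.2 and 16.7 TPM in WT. The groups did not overlap, but the difference of 0.18 on the log2 scale was close to its error (SE 0.13, adjusted p = 0.419). A330033J07Rik, antisense to Id4, was listed at 0.185 to 0.511 TPM, and how strand was treated in counting is not given in the sources used here.

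**Figure D1:**
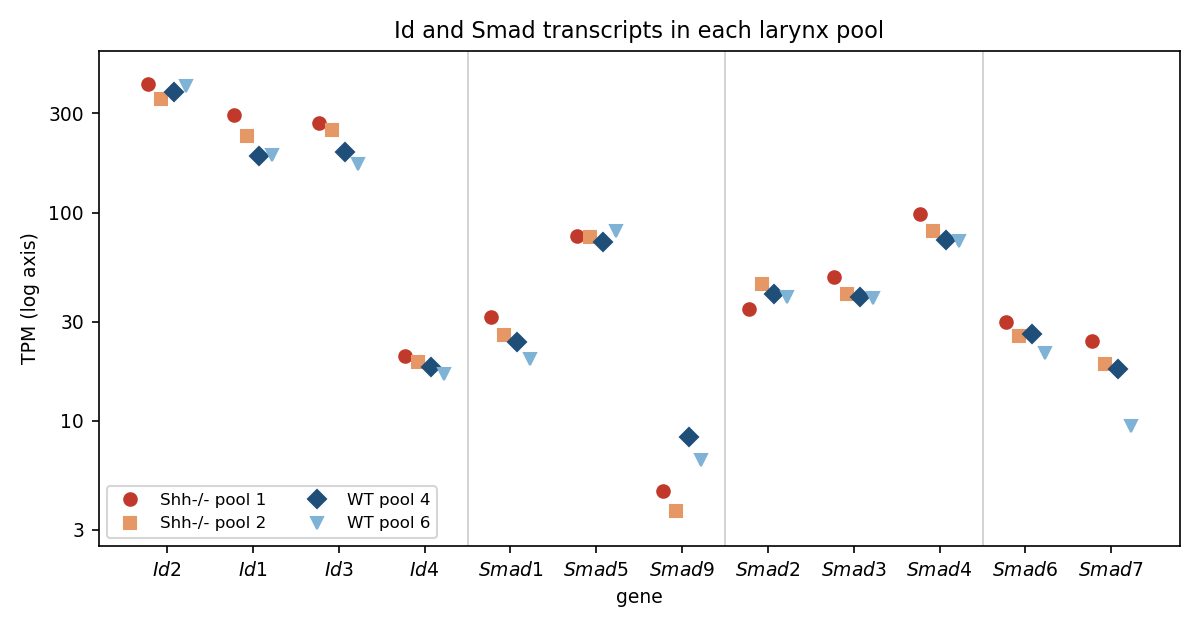
Level in TPM (vertical axis, log scale) of the 10 members, Smad2 and Smad4, with 1 point for each of the 4 libraries. Id2 pools interleave between genotypes, Id1 and Id3 are above 232 TPM in both Shh-/- pools and below 197 TPM in both WT pools, and Smad9 is below 4.61 TPM in Shh-/- and above 6.47 TPM in WT.

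Because TPM is a share of 1 library, the balance among the Id genes was also taken within each pool. These ratios were chosen after the values had been seen, and they are given without a test. Id transcripts summed to 1000.14 and 851 TPM in Shh-/- and to 782 and 786 TPM in WT. Id2 made up 41.6% and 41.1% of that sum in the mutant pools against 48.5% and 51.9% in the controls. The share of Id1 was 29.4% and 27.3% in Shh-/- against 24.1% in each WT pool, and that of Id3 was 26.9% and 29.2% against 25.2% and 21.9%. The ratio of Id1 to Id2 was thus 0.708 and 0.665 in Shh-/- and 0.496 and 0.464 in WT, with no overlap between genotypes. Id1 and Id3 kept nearly the same ratio to each other throughout, at 1.09 and 0.935 in Shh-/- and 0.956 and 1.10 in WT, and which of them was higher changed from pool to pool. Id4 remained at 2.06% to 2.32% of the sum in all 4 libraries.

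**Figure D2:**
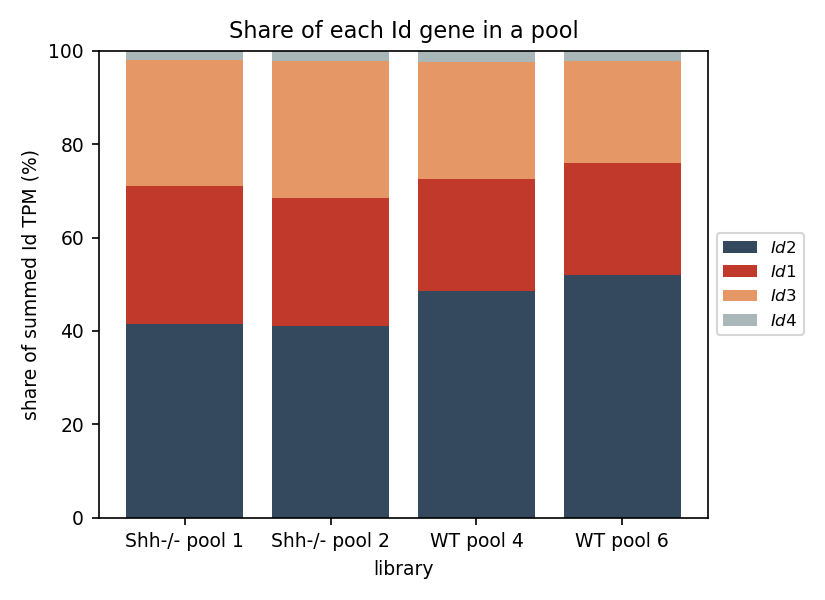
Share of the summed Id TPM (vertical axis, percent, from 0) held by Id1, Id2, Id3 and Id4 in each of the 4 libraries. Id2 holds 41.6% and 41.1% in mutants against 48.5% and 51.9% in controls, with Id1 and Id3 taking up the difference.

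The Smads that carry BMP signals moved less together. Smad1 and Smad5 supplied most of the transcript of this class, Smad5 was level, and Smad9 was lower in both mutant pools without passing the test. Smad1 (chr8:79338395-79399518, minus strand) measured 31.5 and 26.0 TPM in Shh-/- and 23.8 and 19.8 TPM in WT. Its groups did not overlap, but the gap between the nearest pools of the genotypes was smaller than the gap between the WT pools. The log2 fold change was 0.38 (SE 0.17, 95% interval -0.04 to 0.81, adjusted p = 0.231). Smad5 (chr13:56703010-56742377, plus strand), the most abundant Smad among the members, measured 77.7 and 76.2 TPM in Shh-/- and 72.4 and 82.0 TPM in WT. The WT pools lay on both sides of the mutant pools, and the 95% interval of the log2 fold change was -0.29 to 0.28 (adjusted p = 0.994). Within Smad5 lie 3 short RNA genes (Gm27271, Gm27301 and Gm27834), listed at 0 to 2.18 TPM.

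Smad9 (chr3:54755582-54801257, plus strand) was the least abundant member, at 4.60 and 3.68 TPM in Shh-/- and 8.40 and 6.48 TPM in WT. It was the only one of the 10 to be lower in both mutant pools than in both controls. Its log2 fold change of -0.71 (SE 0.21, 95% interval -1.25 to -0.17, unadjusted p = 0.0200, adjusted p = 0.146) was the largest in size among the members, and 3.95% of tested genes had a lower value. Mean read coverage over the gene was 3.03 and 5.73 in Shh-/- and 12.0 and 9.62 in WT, and the lowest of these was the library with the least sequence. Shh-/- pool 2, where Smad9 was at 3.68 TPM, had more sequence than either control. The part of sequencing depth in these values was not tested. Smad1, Smad5 and Smad9 together came to 114 and 106 TPM in Shh-/- and 105 and 108 TPM in WT, and the share of Smad9 in that sum was 4.05% and 3.47% against 8.03% and 5.98%.

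On the TGF-beta side, Smad3 was slightly higher in the mutants and its partner Smad2 was level. Smad3 (chr9:63646767-63757994, minus strand) measured 49.4 and 40.9 TPM in Shh-/- and 39.3 and 39.0 TPM in WT. Only Shh-/- pool 1 stood clearly above the controls, and the log2 fold change of 0.19 (SE 0.13, 95% interval -0.15 to 0.54, adjusted p = 0.401) was 0.060 without that pool. Smad2 measured 34.6 and 45.6 TPM in Shh-/- and 40.7 and 39.5 TPM in WT (log2 difference -0.01, SE 0.16, adjusted p = 0.970). The shared partner Smad4 was at 98.9 and 81.8 TPM in Shh-/- and 74.0 and 73.6 TPM in WT (log2 difference 0.28, SE 0.13, adjusted p = 0.245). Of the 6 receptor-regulated and common Smads, 3 were higher and 3 lower, and their median log2 fold change was 0.10 against 0.08 over all tested genes.

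Both inhibitory Smads had positive differences, and neither separated the genotypes beyond the spread of the pools. Smad7 (chr18:75367529-75395935, plus strand), which blocks TGF-beta and BMP receptors alike, measured 24.2 and 18.9 TPM in Shh-/- and 17.7 and 9.47 TPM in WT. The WT pools were 0.84 apart on the log2 scale, and Shh-/- pool 2 was nearly as low as WT pool 4. The log2 fold change of 0.68 had an SE of 0.31 and a 95% interval of -0.13 to 1.49 (adjusted p = 0.255). It was 0.26 without WT pool 6 and 1.10 without WT pool 4. Smad6 (chr9:63953076-64022059, minus strand), which acts mainly on BMP signals, measured 29.9 and 25.6 TPM in Shh-/- and 26.0 and 21.2 TPM in WT. WT pool 4 lay above Shh-/- pool 2, and the log2 fold change was 0.23 (SE 0.16, 95% interval -0.19 to 0.65, adjusted p = 0.410). It was 0.085 without WT pool 6, 0.12 without Shh-/- pool 1, 0.37 without WT pool 4 and 0.038 with a correction for GC content and length.

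Across the 10 members, 7 were higher and 3 lower in Shh-/-, and their median log2 fold change was 0.21 against 0.08 over all tested genes. No member passed the adjusted threshold of 0.05 by limma, against 0.725% of all tested genes, and adjusted p ranged from 0.108 to 0.994. At an unadjusted p of 0.05, 3 members passed (Id1, Id3 and Smad9), which is near the 24.8% of tested genes that did so. Both mutant pools were above both controls for 6 members, against 38.0% of tested genes, and below both for 1 member, against 22.7%. With 2 pools against 2, an exact two-sided permutation test of a single gene cannot give a p below 0.33, so these p-values rest on the spread shared across genes and measure differences between these pools of embryos.

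**Figure D3:**
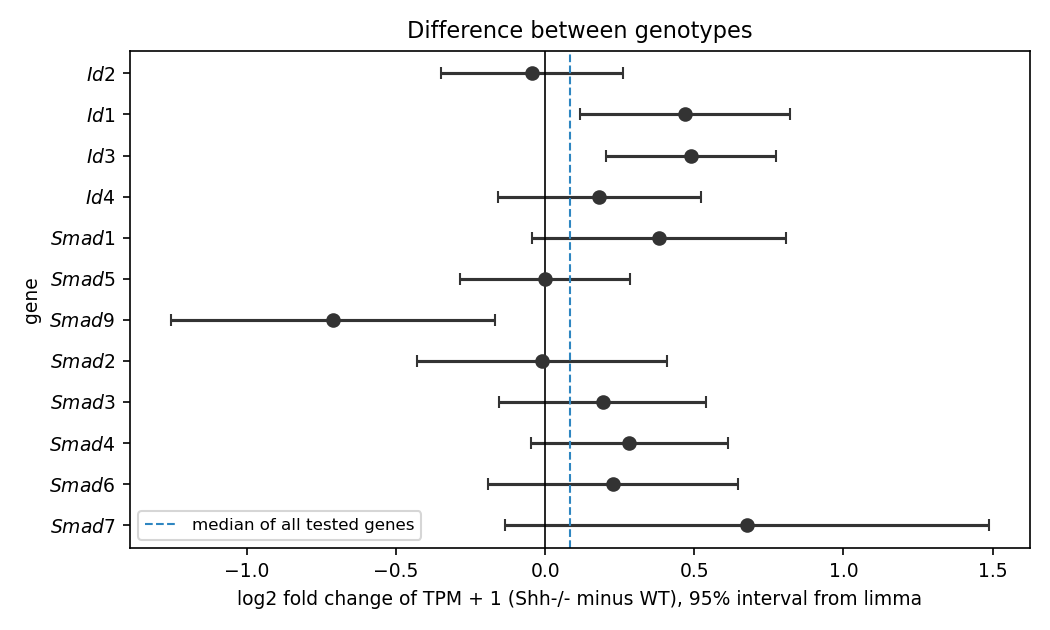
Log2 fold change of TPM + 1, Shh-/- minus WT (horizontal axis), with 95% intervals from limma, for the 10 members, Smad2 and Smad4, with a dashed line at the median of all tested genes (0.08). The intervals of Id1, Id3 and Smad9 leave out 0, and those of the other 7 members include it.

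The 2 mutant pools were ordered alike for all members, although that order does not say which of them stood apart. For Smad5 the gap was only 0.026 on the log2 scale. Shh-/- pool 1 was above Shh-/- pool 2 for 10 of 10 members, whereas this held for 57.9% of tested genes. WT pool 4 was above WT pool 6 for 7 of 10 members, whereas this held for 55.5%. Shh-/- pool 1 was the library with the least sequence and the smallest haemoglobin share, and the part of either in the members' values was not tested. Without it, the log2 fold change of Id1 was 0.30, that of Id3 was 0.43 and that of Smad9 was -0.84.

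Levels of markers of several cell types also differed between the pools. The adjusted threshold was passed by 3 of 6 neuron, 2 of 6 muscle, 1 of 6 endothelial and 1 of 6 mesenchyme markers, all higher in Shh-/-, and by 0 markers of the other lists (at an unadjusted p of 0.05, 3 of neural crest and glia, 3 of epithelium and 0 of erythroid cells and macrophages). Over all tested genes, 0.725% passed the adjusted threshold and 24.8% the unadjusted one. All 6 endothelial markers were higher in Shh-/-, and their summed level was 287 and 328 TPM against 191 and 183 TPM. Neuron markers summed to 388 and 415 TPM against 168 and 172 TPM (5 of 6 higher), and muscle markers to 170 and 272 TPM against 65.5 and 75.3 TPM (6 of 6 higher). Neural crest and glia markers came to 131 and 122 TPM against 91.1 and 75.1 TPM (6 of 6 higher), and mesenchyme markers to 670 and 583 TPM against 410 and 399 TPM (4 of 6 higher). The 2 lower mesenchyme markers were Foxf1 and Tbx5. Foxf1 was at 0.848 and 9.57 TPM against 72.3 and 64.6 TPM (log2 difference -3.97, limma adjusted p = 0.0976). Tbx5 was at 1.22 and 4.71 TPM against 19.4 and 12.6 TPM (-2.23, limma adjusted p = 0.106). Epithelial markers summed to 482 and 418 TPM against 427 and 430 TPM, with 4 higher and 3 lower. That sum did not reflect its less abundant genes, since Foxa2 was at 5.34 and 9.12 TPM against 29.2 and 39.8 TPM (log2 difference -2.13, adjusted p = 0.0602) and Nkx2-1 at 6.16 and 3.61 TPM against 15.9 and 17.9 TPM (-1.64, adjusted p = 0.0715). Macrophage markers were low throughout, at 8.89 to 13.9 TPM, and all 6 erythroid markers were lower in Shh-/-, with sums of 10574 and 16173 TPM against 14497 and 16791 TPM. No marker list had a gene at 0 in all 4 libraries. Id1 and Id3 are transcribed in endothelium and neural crest as well as in mesenchyme, and the part of tissue makeup in their higher levels was not tested.

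Textbook targets of BMP and TGF-beta signals were read beside the Id genes, in lists drawn up with earlier results of these data known. Of 12 BMP-induced genes, 11 were tested, 9 were higher and 2 lower, and no gene passed the adjusted threshold, while 9 passed an unadjusted p of 0.05, all higher (24.8% of all tested genes passed in either direction). Their median log2 fold change was 0.79, above the 0.47 of Id1 and 0.49 of Id3. Msx1, a homeobox gene of BMP-exposed mesenchyme and dorsal neural tissue, measured 74.6 and 36.3 TPM in Shh-/- and 9.02 and 3.47 TPM in WT (log2 difference 2.99, adjusted p = 0.0784). Dlx5 was 2.05 higher (adjusted p = 0.119), Msx2 1.72 higher (adjusted p = 0.0933) and Tbx2 1.06 higher (adjusted p = 0.137) on the log2 scale. The BMP pseudoreceptor Bambi and the BMP antagonist Nog were the lower pair, with log2 fold changes of -0.20 and -0.44 (adjusted p = 0.379 and 0.287).

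Of 12 TGF-beta-induced genes, 11 were higher and 1 lower in Shh-/-, 7 and 1 of them at an unadjusted p of 0.05 (24.8% over all tested genes). The median log2 fold change was 0.76. Tagln, an actin-binding protein of smooth muscle and fibroblasts, rose from 116 and 120 TPM in WT to 232 and 208 TPM in Shh-/- (log2 difference 0.88, adjusted p = 0.0493). It did not pass once any 1 pool was left out, where few or no genes of any kind were called. It passed in 3 of 14 other settings, with a log2 difference of 0.76 to 0.96 over the 14. Postn (2.25, adjusted p = 0.0595), Tgfbi (1.37, adjusted p = 0.0602) and Acta2 (0.83, adjusted p = 0.0559), which encode matrix proteins and smooth-muscle actin, were also higher on the log2 scale without passing. Skil, a repressor of SMAD2 and SMAD3 complexes, was lower (-0.57, adjusted p = 0.138). Muscle and mesenchyme marker sums were higher in the same pools, as given above, although Foxf1 and Tbx5 of the mesenchyme list were lower. The part of these tissues in these values was not tested.

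The partners of the Id proteins did not move as a group. Among the E proteins, the bHLH factors that Id proteins sequester, Tcf3 measured 208 and 182 TPM in Shh-/- and 156 and 126 TPM in WT (log2 difference 0.47, adjusted p = 0.152). Tcf12 ran the other way, at 87.1 and 103 TPM in Shh-/- and 132 and 124 TPM in WT (-0.43, adjusted p = 0.139). The ratio of Tcf3 to Tcf12 was 2.39 and 1.77 in Shh-/- and 1.19 and 1.02 in WT, a ratio also chosen after seeing the values. Tcf4 overlapped between genotypes (65.8 and 34.6 TPM in WT, 64.8 and 50.6 TPM in Shh-/-). Summed Id transcript stood at 2.78 and 2.53 times the summed E-protein transcript in Shh-/- and at 2.21 and 2.76 times in WT, so that balance overlapped.

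Of 18 tissue-specific bHLH factors that pair with E proteins, 16 were tested, of which 11 were higher (8 at an unadjusted p of 0.05) and 5 lower (4 at that level). Over all tested genes, 24.8% passed that level in either direction. Their median log2 fold change was 0.72, and 0.37 with a correction for GC content and length. Twist1, a factor of mesenchyme and neural crest, rose from 46.1 and 43.8 TPM to 147 and 125 TPM (log2 fold change 1.57, adjusted p = 0.0323). It was not past the threshold with any 1 pool left out, where few or no genes of any kind were called. Its log2 fold change was 1.28 to 1.69 over the 14 other settings. The proneural factors Neurog2 (3.85, adjusted p = 0.0828), Neurod4 (3.07, adjusted p = 0.0525) and Neurod1 (3.01, adjusted p = 0.0736) had larger differences on the log2 scale without passing, in the pools where neuron markers were higher. Whether the neuron markers and these factors came from the same cells was not tested.

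**Figure D4:**
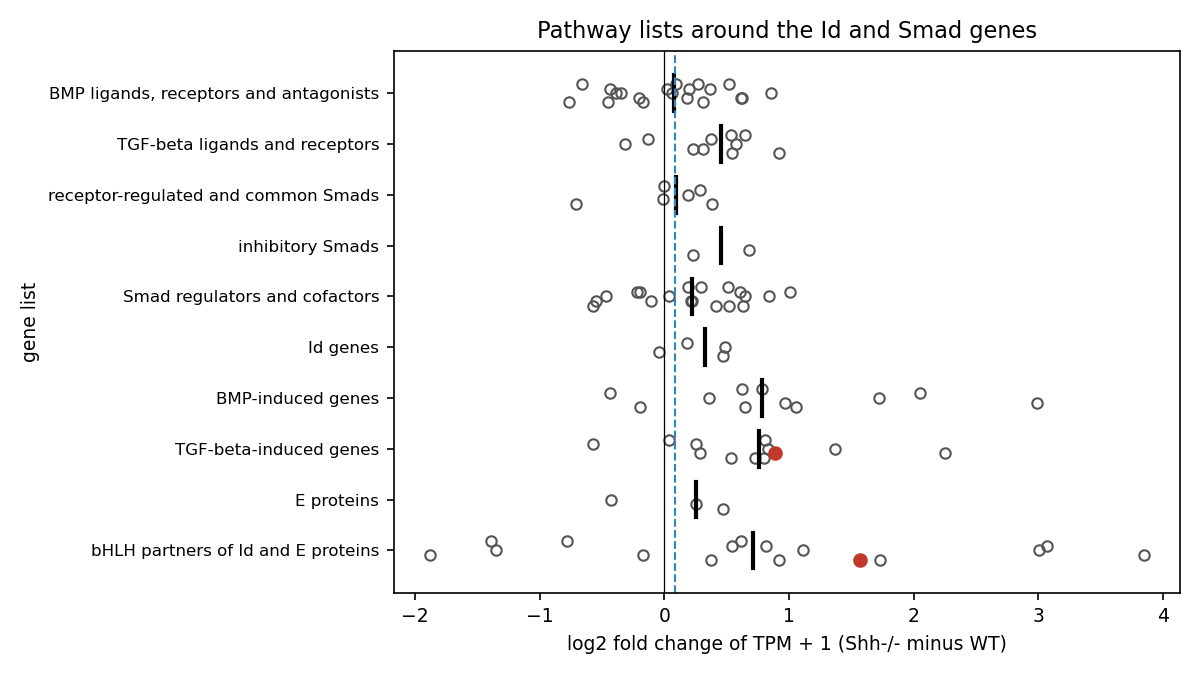
Log2 fold change of TPM + 1, Shh-/- minus WT (horizontal axis), for each tested gene of the Id, Smad and pathway lists (1 circle a gene, filled where the adjusted p is under 0.05), with a bar at the median of each list and a dashed line at the median of all tested genes. The medians are 0.79 for BMP-induced genes and 0.76 for TGF-beta-induced genes, against 0.33 for the Id genes and 0.10 for receptor-regulated and common Smads.

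Upstream of the Smads, where the list shares Nog and Grem1 with the BMP-induced genes, the ligands and receptors showed no shared direction on the BMP side. Of 21 BMP ligands, receptors and antagonists, 20 were tested, 12 being higher and 8 lower, and their median log2 fold change of 0.08 was that of all tested genes. The split became 9 higher and 11 lower once each library was centred on its median. The widest differences were those of Eng (0.86, adjusted p = 0.0972), a co-receptor of endothelium, the ligand Bmp2 (-0.77, adjusted p = 0.149), the activin and BMP antagonist Fst (-0.66, adjusted p = 0.228) and the antagonist Grem1 (0.62, adjusted p = 0.122). Bmp4, the most abundant of the listed BMP ligands, measured 63.9 and 54.1 TPM in Shh-/- and 37.7 and 38.2 TPM in WT. Its log2 fold change was 0.618 (limma adjusted p = 0.0987), opposite in sign to that of Bmp2. Of 13 TGF-beta and activin ligands, receptors and latent TGF-beta binding proteins, 10 were tested, with 8 higher, 2 lower and a median of 0.45. Those tested included the binding proteins Ltbp1, Ltbp3 and Ltbp4. The activin subunit genes Inhba and Inhbb and the receptor Acvr1c averaged under 1 TPM and were not tested. The median was 0.25 without Shh-/- pool 1 and also 0.25 with the correction for GC content and length. The higher genes were led by the ligand Tgfb1 (0.92, adjusted p = 0.116) and the receptor Tgfbr2 (0.64, adjusted p = 0.134), followed by the ligand Tgfb3 (0.57, adjusted p = 0.157) and the co-receptor Tgfbr3 (0.54, adjusted p = 0.223). No gene of either list passed by limma, and 5 and 3 genes passed an unadjusted p of 0.05, shares near the 24.8% of all tested genes.

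Of 20 genes that regulate SMAD proteins or bind DNA with them, 19 were tested, 13 were higher and 6 lower, and none passed by limma. At an unadjusted p of 0.05, 8 passed (5 higher and 3 lower), against 24.8% of all tested genes. The list shares Skil, Pmepa1 and Bambi with the lists of induced genes. Zfp423, a zinc-finger partner of SMAD1 complexes at BMP targets, was 1.01 higher on the log2 scale (adjusted p = 0.0977). Tob1, an antiproliferative protein that binds SMADs, was 0.63 higher (adjusted p = 0.109), and the ubiquitin ligase Nedd4l was 0.65 higher (adjusted p = 0.144). The corepressor Tgif2 was 0.84 higher with wide error (adjusted p = 0.456).

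**Figure D5:**
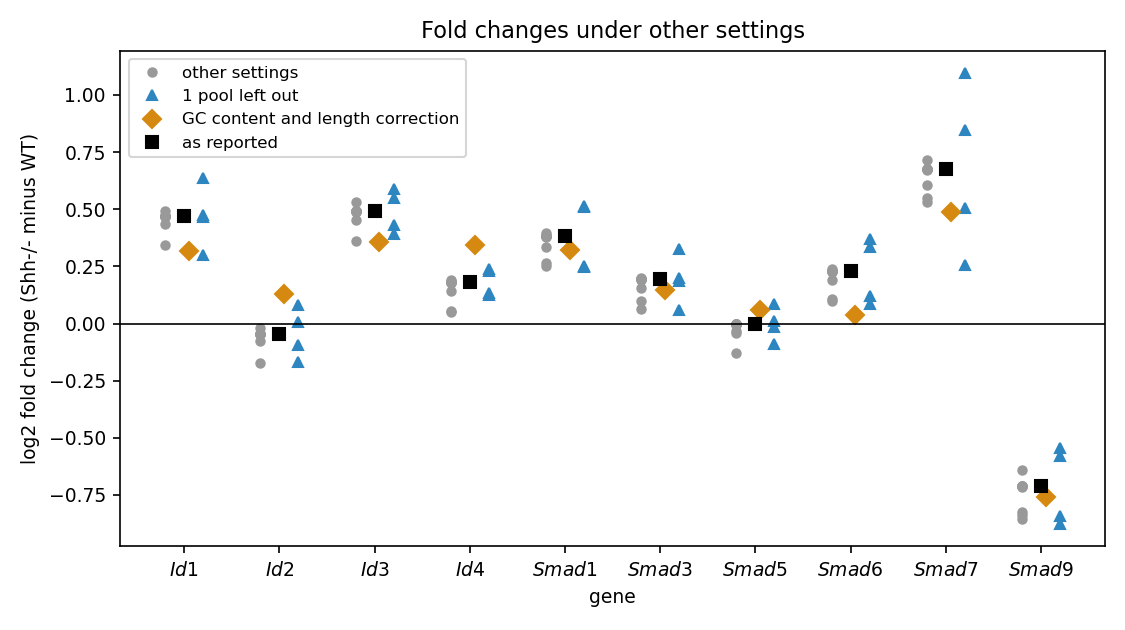
Log2 fold change of each member (vertical axis) as reported (square), with 1 pool left out (triangles), with the GC content and length correction (diamond) and under the other settings (circles). Id1 stays between 0.30 and 0.64, Id3 between 0.35 and 0.59 and Smad9 between -0.88 and -0.55, whereas Id2 and Smad5 fall on both sides of 0.

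The differences of Id1, Id3 and Smad9 kept their sign in each of the 14 other settings, and their lowest adjusted p in any of them was 0.125, 0.105 and 0.108. Relative to the library medians, which were 0.13 higher in Shh-/- on the log2 scale, Id1 was 0.34 and Id3 0.36 higher, Id2 was 0.17 lower (log2 fold change -0.17) and Smad9 had a log2 fold change of -0.84. Smad6 (0.10), Smad3 (0.07) and Id4 (0.05) were then close to the median gene.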

How the data were processed

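Poly(A) RNA libraries from 2 Shh-/- and 2 WT pools were sequenced single-end. Per the labels, the authors aligned reads to mm10 with HISAT2 2.1.0 and estimated gene levels with StringTie 1.3.6. The deposited values are TPM, FPKM and mean read coverage per gene. Read counts were not used, so no counting interval is given. Aligned sequence was estimated from coverage and FPKM over genes with 1 transcript. TPM was summed per gene ID, and gene IDs averaging 1 TPM or more were tested on log2(TPM + 1), a scale that understates differences of low genes, with limma 3.58.1 in R 4.3.3 (variance trend, Benjamini-Hochberg adjustment over 16972 genes, threshold 0.05). Gene types came from GENCODE M21. All 37 mitochondrial genes were listed at 0. The script was tested on simulated data, with a spread that was set and not taken from these pools. Of 200 genes given a log2 change of 1 there, 0 were called, and of those given a change of 2, 95.0% were.

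Members were fixed by name, and the text names from each list up to 4 genes, those past the threshold first and then those with the largest absolute difference. Some genes beyond these were also named, among them Bambi, Nog, Skil and Bmp4. The members and lists were chosen with earlier results of these data known. Alternatives covered pseudocount, filter, scaling, FPKM, haemoglobin, GC content and length, variance model, threshold and each pool left out.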

Additional observations from a re-analysis of the deposited data

How the results depend on the processing

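Of 140 member results under other settings, 134 kept their direction and their side of the threshold, 6 reversed and none was called (lowest adjusted p 0.105). The reversals were those of the members nearest 0. With a correction for GC content and length the log2 fold change was 0.13 for Id2 and 0.060 for Smad5. With each pool left out in turn it ran from -0.17 to 0.080 for Id2 (0.080 without Shh-/- pool 2 and 0.0087 without WT pool 6) and from -0.090 to 0.087 for Smad5 (0.012 and 0.087 without the same pools). The number of genes called, 123, became 69 with a pseudocount of 0.1, 78 with the GC content and length correction, 0 with no filter on low values (28524 genes tested, 5011 at an unadjusted p of 0.05) and 858 at an adjusted p of 0.10. It was 0 to 16 with 1 pool left out, being 0 without Shh-/- pool 1, Shh-/- pool 2 or WT pool 4 (2800, 3761 and 3551 at an unadjusted p of 0.05) and 16 without WT pool 6. In those fits the lone pool is assumed to vary like the other genotype. The cause of these moves was not tested. Ptch1 and Twist1 each passed in 9 of the 14 settings. The median of the E proteins was -0.20 without WT pool 6, and 92 of 120 list medians stayed within the spread of the pools. No paired analysis was possible because the genotypes share no replicate number in the labels. With 2 pools a genotype, differences of the size of those of Id1, Id3 and Smad9 were not called at this error.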
